A study of Mus musculus with 8 samples.

Results

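Transcripts of 7 genes of the cytoskeleton and podosomes of osteoclasts were examined for N4-acetylcytidine (ac4C), an acetylated cytosine in RNA. The genes were Tln1, Flna, Myh9, Vim, Pfn1, Cfl1 and Gsn. Their members are the peaks that share 1 or more bases, on the same strand, with 7 stated gene spans in the mouse build mm39 (GRCm39). These were 107 of the 105252 peaks in 4 deposited lists. A peak is a stretch where RNA pulled down with an ac4C antibody (the immunoprecipitate, IP) stood above the same RNA without pull-down (the input). The lists carry no gene names, so each gene is identified by its span and strand. On the strand of the gene the spans held 107 peaks, and on the opposite strand 1.

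The cells were monocytes grown from mouse bone marrow and treated for 3 days with RANKL, the cytokine that induces osteoclast formation. They came from wild-type mice (WT) or from mice with a conditional knockout of Nat10 (CKO), the gene of the enzyme that acetylates cytidine in RNA, and all groups had received RANKL. The 8 samples, 4 IP and 4 input, were reduced by the authors to 4 lists, 2 per genotype, named here WT 1, WT 2, CKO 1 and CKO 2. The design text states as the aim to find how ac4C differs between the genotypes during osteoclast differentiation. The Cre driver, the age and sex of the mice and any pooling of animals are unstated in the sources read. Neither the loss of Nat10 nor osteoclast markers were checked here, since the only spans used in mm39 were those of the 7 genes.

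Podosomes are dot-like adhesion structures with a core of branched actin filaments and a ring of integrins and adaptor proteins. Osteoclasts arrange them into a belt that becomes the sealing zone, the actin ring that closes off the bone surface under attack. The proteins of the 7 genes act at different levels of this structure. Talin-1 (Tln1) activates integrins and ties them to actin, and filamin A (Flna) crosslinks actin filaments. Non-muscle myosin IIA (its heavy chain is Myh9) pulls on them, and vimentin (Vim) forms intermediate filaments. Profilin-1 (Pfn1) feeds actin monomers to growing filaments, while cofilin-1 (Cfl1) and gelsolin (Gsn) sever them.

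The 4 lists held between 24249 and 28087 peaks each, and their read depth is unknown. WT 2 stood apart in the 7 genes. It carried 12 of its 24851 peaks there, or 4.83 per 10000, against 12.11, 9.61 and 14.02 per 10000 in WT 1, CKO 1 and CKO 2. Its authors' scores had the lowest median, 29.5, against 71.3 to 116.5 in the other lists. Its list was not the shortest, since CKO 2 had 24249 peaks in all, and the part of read depth was not tested. An absent peak below means that no peak is listed, not that ac4C is absent. A lower peak number can also come from less of the mRNA. A listed peak is enrichment with the antibody over the input and need not be ac4C, in the CKO lists as in the WT lists. The specificity of the antibody was not tested.

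All 7 genes carried listed peaks, and 5 of them, Tln1, Flna, Myh9, Vim and Cfl1, did so in every list. Pfn1 and Gsn had none in WT 2. Over the 4 lists there were 38 peaks in Myh9, 25 in Tln1, 21 in Flna, 10 in Gsn, 6 in Vim, 4 in Cfl1 and 3 in Pfn1. Per kb of gene span, introns included, the peak numbers summed over the 4 lists lay close together for 5 genes. They were 0.8 in Cfl1, 0.78 in Tln1 and in Flna, 0.75 in Pfn1 and 0.6 in Vim. Myh9, with the longest span (83 kb), had 0.46 and Gsn, with a span of 52 kb, 0.19 per kb. Gsn thus had fewer peaks than Tln1 (32 kb) or Flna (27 kb) on a longer span. The small Cfl1 (5 kb) and Pfn1 (4 kb) spans carried at most 1 peak per list. In the share of the span covered by peaks of any list, the 5 genes lay further apart. It was 4.26% in Tln1, 5.02% in Vim, 7.77% in Flna, 8.44% in Cfl1 and 14.35% in Pfn1.

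**Figure D1:**
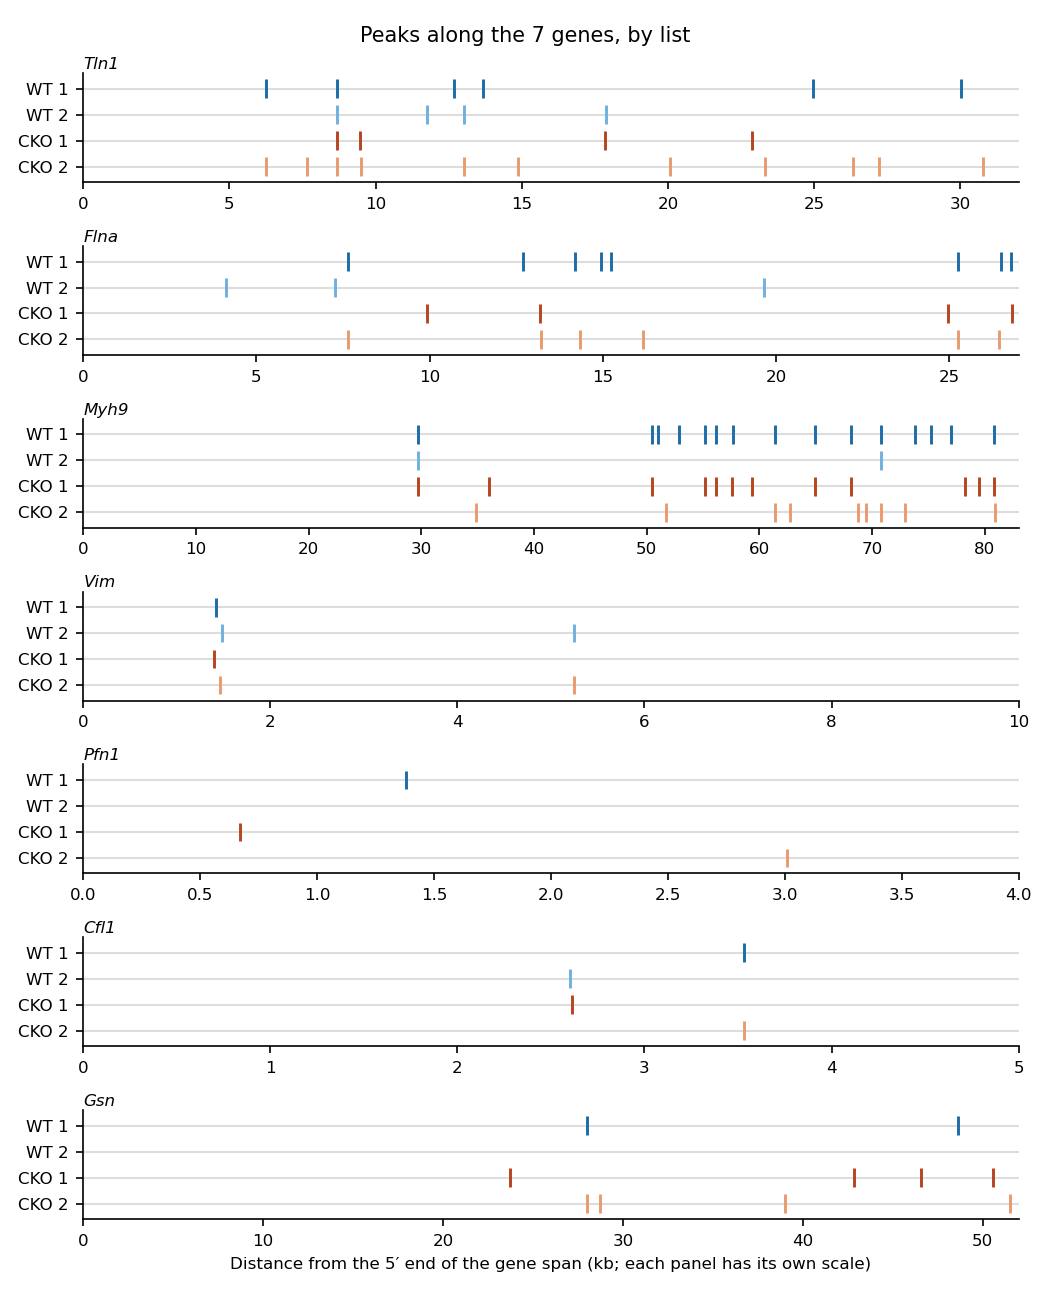
Position of each peak along the 7 genes (x axis, kb from the 5′ end of the gene span to the peak's midpoint, a separate scale per gene) in the 4 lists (rows). Each tick is 1 peak; in Myh9, 33 of 38 ticks lie beyond 50 kb, and the Gsn rows are empty over the first 23 kb.

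In the 7 genes together, the lists held 34 peaks (WT 1), 12 (WT 2), 27 (CKO 1) and 34 (CKO 2). WT lists averaged 23 ± 15.6 and CKO lists 30.5 ± 4.95 peaks (SD, n = 2 each), a difference of 7.5 peaks, less than the SD between the WT lists. The genotypes overlapped, and an exact two-sided permutation test over the 4 lists gave p = 1.0 (adjusted p = 1.0 over 10 tests). The smallest p that this test allows with 2 lists per genotype is 0.333. Without WT 2 the sign turned, to a CKO minus WT difference of -3.5 peaks, and in the top 50% of each list by score the difference was 0.5 peaks. The bases covered in the 7 genes were 3872 and 1263 in WT and 3023 and 3587 in CKO, with means of 2568 ± 1845 and 3305 ± 399 (SD, n = 2 each; exact permutation p = 1.0, adjusted p = 1.0). Without WT 2 this difference was also reversed, from 737.5 to -567 bases.

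**Figure D2:**
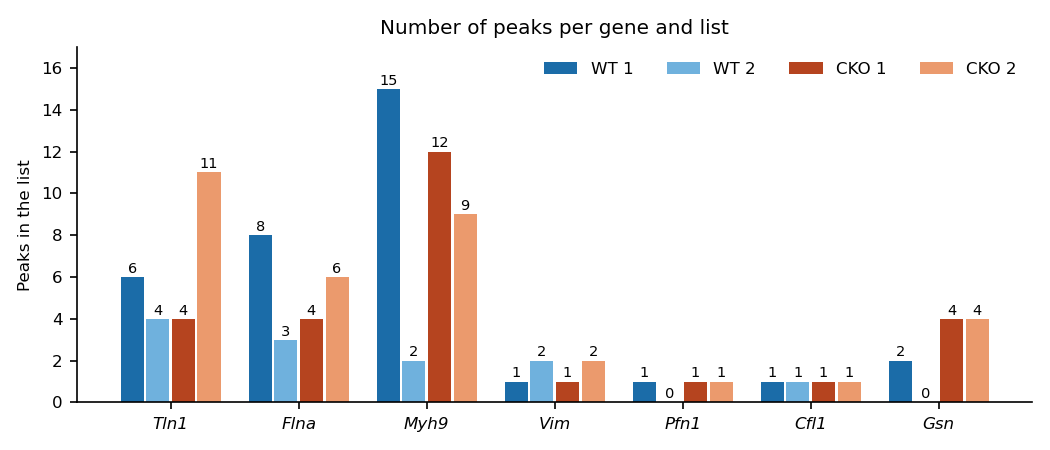
Number of peaks (y axis) in each of the 7 genes, as 1 bar per list with its count printed above. Only in Gsn do both CKO bars (4 and 4) stand above both WT bars (2 and 0).

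Among the adhesion and crosslinking proteins, Tln1 held the strongest signal that every list shared. This was a stretch of 35 bases at chr4:43554304-43554338 on the minus strand, 8.68 kb from the 5′ end of the span. In WT 1 its peak stood at percentile 99.8 of that list's authors' scores, in WT 2 at 99.8, in CKO 1 at 99.95 and in CKO 2 at 99.8. The scores are the authors' own, and only their order inside a list is used here. The peak was 31 and 29 bases long in WT and 35 and 33 bases in CKO, and its 5′ edge was the same base, 43554338, in all 4 lists. No other stretch of Tln1 was held by more than 2 lists.

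Tln1 carried 6 and 4 peaks in WT and 4 and 11 in CKO. The means were 5.0 ± 1.41 and 7.5 ± 4.95 (SD, n = 2 each), the lists of the genotypes overlapped, and the exact permutation p was 1.0 (adjusted p = 1.0). Without CKO 2 the difference turned from 2.5 to -1.0. CKO 2 held 7 of the 16 Tln1 peaks that lay beyond 10 kb from the 5′ end. The peaks of CKO 2 in this gene were also mostly low in its list, with a median percentile of 28.9 against 55.1 in CKO 1, 93.0 in WT 1 and 85.3 in WT 2. The lowest, at chr4:43532192-43532273, stood at percentile 0.39. WT 1 had a second peak near the top of its list, at percentile 99.7, at chr4:43550243-43550378, where no other list had one. At 6.25 kb from the 5′ end, WT 1 and CKO 2 both held a peak at chr4:43556717-43556783, at percentiles 93.0 and 97.2.

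A stretch of Tln1 at chr4:43553449-43553550, 9.5 kb from the 5′ end, was held by both CKO lists and neither WT list. The CKO 1 peak covered 40 bases and stood at percentile 64.2, and the CKO 2 peak covered 102 bases at percentile 24.6. The nearest WT peaks were 757 (WT 1) and 759 (WT 2) bases away and were the shared stretch described above.

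Flna, which anchors integrins and membrane receptors to the actin mesh, carried 8 and 3 peaks in WT and 4 and 6 in CKO. The genotypes overlapped, the means were 5.5 ± 3.54 and 5.0 ± 1.41 (SD, n = 2 each) and the exact permutation p was 1.0 (adjusted p = 1.0). Leaving out WT 1 or CKO 1 turned the difference of -0.5 to 2.0 or 0.5. The best Flna peak stood at percentile 97.1 in WT 1 and 99.4 in WT 2, and at 83.8 in CKO 1 and 76.6 in CKO 2. Ranks come from lists of different lengths and show no change in signal between them.

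The 3 Flna peaks of WT 2 all ranked high in that list, at percentiles 99.4, 97.6 and 88.0, and none of them overlapped a peak of another list. The highest lay at chrX:73289770-73290004, 4.11 kb from the 5′ end. WT 1 and CKO 2 had 4 Flna stretches in common that the other lists lacked. In 1 of these, at chrX:73268655-73268864, both peaks ran over the same 210 bases. The peaks at chrX:73286334-73286411 shared their 3′ edge but stood at percentile 97.1 in WT 1 and 11.1 in CKO 2. Both CKO lists, and neither WT list, held a peak at chrX:73280728-73280845. It covered 32 bases at percentile 13.7 in CKO 1 and 118 bases at percentile 76.6 in CKO 2, and a WT 1 peak lay 442 bases away.

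The motor gene Myh9 had the most peaks, 15 in WT 1, 2 in WT 2, 12 in CKO 1 and 9 in CKO 2. The WT lists lay on either side of both CKO lists. The mean for WT was 8.5 ± 9.19 peaks and for CKO 10.5 ± 2.12 (SD, n = 2 each; exact permutation p = 1.0, adjusted p = 1.0). Without WT 2 the difference turned from 2.0 to -4.5. The peaks were placed unevenly, 33 of the 38 in the last 33 kb of the span and 5 before it. The peaks nearest the 5′ end lay 29.7 kb from it.

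High ranks were frequent in Myh9. Of its peaks, 10 of 15 in WT 1, 2 of 2 in WT 2, 4 of 12 in CKO 1 and 3 of 9 in CKO 2 stood above percentile 90 of their list. The strongest were single: WT 1 at chr15:77651785-77651863 (percentile 99.9), CKO 1 at chr15:77667591-77667703 (99.65) and CKO 2 at chr15:77654024-77654173 (99.94) each stood where no other list had a peak. No stretch of Myh9 was held by all 4 lists, and 3 were held by 3 lists. At chr15:77656117-77656236 the peak stood at percentiles 99.1 in WT 1, 96.1 in WT 2 and 90.1 in CKO 2. At chr15:77697203-77697431, 29.7 kb from the 5′ end, it stood at 97.8 in WT 1, 92.95 in WT 2 and 88.8 in CKO 1. At chr15:77645906-77646216, near the 3′ end, WT 1, CKO 1 and CKO 2 had a peak at percentiles 67.3, 73.9 and 53.1. A further 6 stretches were held by WT 1 and CKO 1 alone, and 1 by WT 1 and CKO 2 alone.

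Vim, whose protein forms the intermediate filaments of cells of the mesenchymal and blood lineages, had the widest peaks of the 7 genes. At chr2:13579205-13579644 on the plus strand, 1.42 kb from the 5′ end of the span, every list held a peak. It covered 440 bases in WT 1, 237 in WT 2, 395 in CKO 1 and 267 in CKO 2. Its percentiles were 49.9, 96.85, 83.9 and 95.6 in the same order, so WT 1 held the widest and the lowest ranked. WT 2 and CKO 2 had a further Vim peak, at chr2:13583224-13583285, at percentiles 98.6 and 66.2. Each genotype thus had 1 list with 1 Vim peak and 1 list with 2 (exact permutation p = 1.0, adjusted p = 1.0).

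Pfn1 and Cfl1 encode small proteins with different actions on the actin filament. In Pfn1 the 3 lists with a peak had it in 3 different places. WT 1 held it at chr11:70544517-70544716 (200 bases, percentile 97.4), CKO 1 at chr11:70545195-70545458 (264 bases, percentile 99.8) and CKO 2 at chr11:70542938-70543047 (110 bases, percentile 76.4). These lay 1.38, 0.67 and 3.01 kb from the 5′ end of the 4 kb span. In Cfl1 each list had 1 peak, and the lists fell into 2 places that crossed the genotypes. WT 2 and CKO 1 had it at chr19:5542525-5542694 (percentiles 99.2 and 96.9), and WT 1 and CKO 2 at chr19:5543409-5543660 (percentiles 87.8 and 64.7). The stretches were 714 bases apart, and within each both peaks began at the same base. For the peak numbers of both genes the exact permutation p was 1.0 (adjusted p = 1.0).

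Gsn, the calcium-activated severing and capping protein of osteoclast podosomes, was the only 1 of the 7 genes in which the genotypes did not overlap in peak number. WT 1 held 2 peaks, WT 2 none, and CKO 1 and CKO 2 held 4 each. That is a mean of 1.0 ± 1.41 for WT against 4.0 ± 0 for CKO (SD, n = 2 each), and the exact permutation p was 0.333 (adjusted p = 1.0), the smallest this design allows. Among 12944 same-strand stretches of the series with 3 or more peaks, chained across gaps of up to 5000 bases, both CKO lists exceeded both WT lists in 8.22% and both WT lists exceeded both CKO lists in 8.66%. In the 7 genes these counts were 1 and 0. Stretches and gene spans are unlike units, since a gap of more than 5000 bases splits a gene, as it does Gsn. The background is thus only a rough guide, and 1 gene of 7 is not read as a departure from it. In the top 50% of each list the Gsn numbers were 1 and 0 in WT and 1 and 4 in CKO, which overlap. With peaks of 100 bases or more they were 1 and 0 in WT and 2 and 2 in CKO, which do not.

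The Gsn peaks of the CKO lists were not in the same places. No stretch of Gsn was held by both CKO lists. CKO 2 had its best peak at chr2:35184947-35185053 (percentile 99.9) and CKO 1 at chr2:35188807-35188922 (percentile 99.7), 42.9 kb from the 5′ end, and neither place carried a peak in another list. The only Gsn stretch held by more than 1 list, chr2:35173917-35174081, was shared by WT 1 (percentile 93.7) and CKO 2 (percentile 67.0). The other 3 peaks of CKO 1 ranked at percentiles 23.7, 48.5 and 21.7. No peak fell in the first 23 kb of the span.

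In Gsn, as in Tln1, Flna, Myh9 and Pfn1, most stretches were thus held by 1 list, while those of Vim and Cfl1 were shared. When the peaks of all lists were merged on any same-strand overlap, the 7 genes held 74 regions. Most of them, 48 (64.9%), came from 1 list only. A pair of lists held 21, a set of 3 lists held 3, and all 4 lists held 2, the Tln1 and Vim stretches named above. Regions held by 2 or more lists made up 35.1% of those in the 7 genes, against 30.9% of the 75389 regions of the series. Regions held by all 4 made up 2.7% against 0.964%, a difference that rests on those 2 regions. Of the 48 regions held by 1 list, 24 had a peak of another list within 1000 bases. The median distance to such a peak was 1008.5 bases. These distances were not compared with those over the series here.

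No region in the 7 genes was held by both WT lists and no CKO list, where 4.26% of all regions of the series were. Both CKO lists and no WT list held 2 regions (2.7%), those in Tln1 and Flna, against 3.64% over the series. With peaks in the lower 50% of each list, or peaks under 100 bases, left out, neither region was still held by both CKO lists. Each then kept a peak of a single CKO list. Of the 21 regions held by exactly 2 lists, 19 were shared by lists of different genotype. The other 2 (9.5%) were shared by lists of the same genotype, against 33.4% over the series. WT 1 shared 7 of the 19 with CKO 1 and 8 with CKO 2, while WT 2, with its 12 peaks, shared 2 with each. The part of the few WT 2 peaks in these counts was not tested.

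The bases in common were measured by the Jaccard index. The index, the bases covered by both lists of a pair over the bases covered by either, was 0.107 for the WT pair and 0.0718 for the CKO pair. WT 1 reached 0.208 with CKO 1 and 0.228 with CKO 2, and WT 2 reached 0.173 with CKO 1 and 0.0896 with CKO 2, the last below the value of the WT pair. The mean within genotypes was 0.0896 and that across genotypes 0.174 ± 0.061 (SD over 4 pairs that share lists), a difference of -0.0848. Over all peaks of the series the corresponding difference was -0.0004. The difference was -0.146 when WT 2 was left out and -0.0513 when CKO 1 was. No test was run, since the 6 pairs come from 4 lists.

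**Figure D3:**
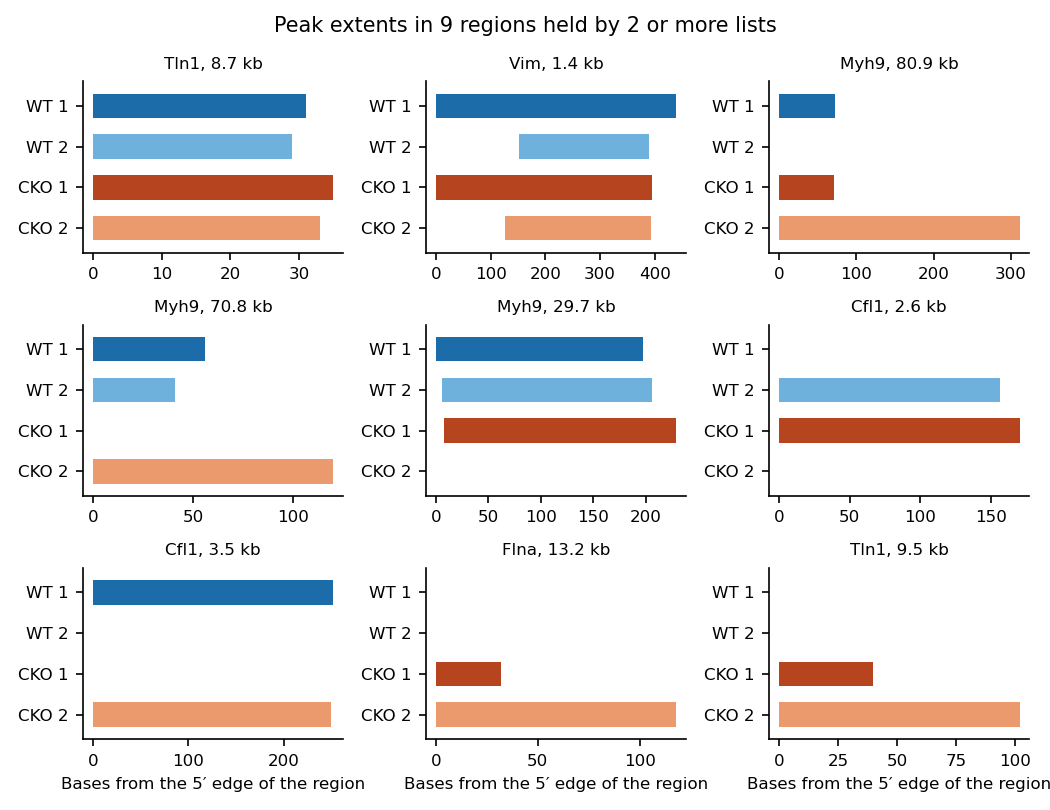
Extent of the peaks (bars) of the 4 lists in 9 regions, with the x axis in bases from the 5′ edge of the region in the direction of the RNA; each title gives the gene and the distance of the region from the 5′ end of the span. The Tln1 bars at 8.7 kb all start together and are 29 to 35 bases long, whereas the 3 bars of Myh9 at 29.7 kb start at different bases.

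Where peaks of different lists overlapped, they mostly shared their 5′ edge, the side nearer the start of the mRNA, to the base. This held for 22 of the 26 regions in the 7 genes with 2 or more lists (84.6%), against 68.5% of such regions in the series. The 3′ edge was the same base in at least 2 lists in 4 of the 26 (15.4%), against 19.6% in the series. In the Myh9 region at 70.8 kb the 3 peaks, of 56, 41 and 120 bases, all began at base 77656236. Whether the authors trimmed peaks, for example at exon edges, is not stated.

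Peaks in the 7 genes were narrower than the lists as a whole. Their median width was 86 bases, whereas the medians of the 4 full lists lay between 110 and 120 bases. Peaks of 200 bases or more were 16.8% of those in the 7 genes and 33.0% of all peaks. Width differed between the genes, with medians of 56 bases in Tln1, 85 in Myh9, 92.5 in Gsn and 117 in Flna. The medians of Vim (252), Cfl1 (209.5) and Pfn1 (200) were wider but rest on 3 to 6 peaks each.

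**Figure D4:**
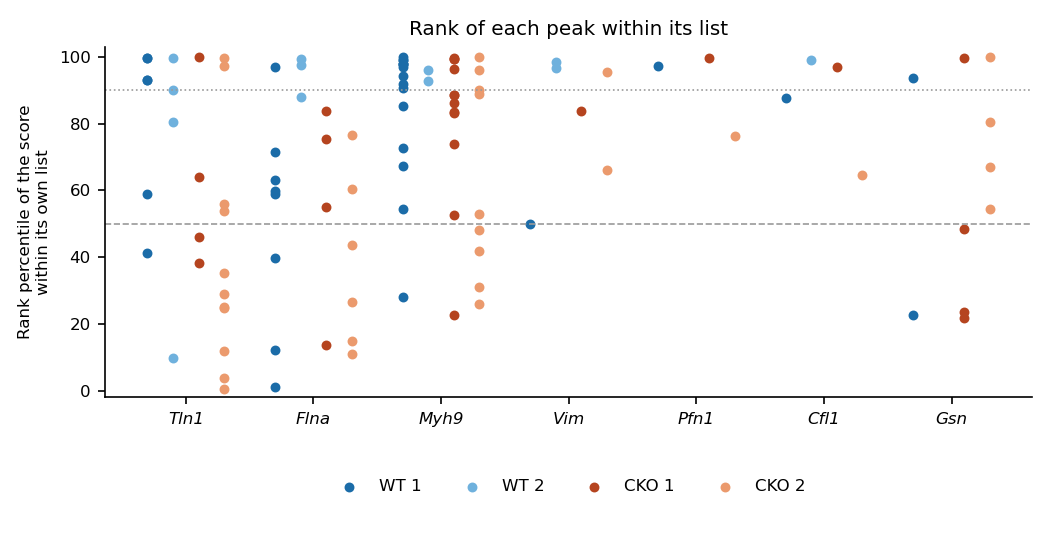
Rank percentile of each peak's score within its own list (y axis, 100 is the highest score) for the 7 genes, with 1 point per peak and lists side by side. Dashed and dotted lines mark percentiles 50 and 90. Every list has a Tln1 peak near 100, and the lowest points are at 0.39 in CKO 2 (Tln1) and 1.06 in WT 1 (Flna).

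The peaks of the 7 genes ranked high in their lists. Of the 107, 41 (38.3%) stood above percentile 90, where a list as a whole has 10%. By list these were 17 of 34 in WT 1, 9 of 12 in WT 2, 8 of 27 in CKO 1 and 7 of 34 in CKO 2. In the same order of lists, Myh9 had 10 of 15, 2 of 2, 4 of 12 and 3 of 9 peaks there. Flna had 1 of 8, 2 of 3, 0 of 4 and 0 of 6. Short peaks were also among those ranked high, with 10 of 29 peaks under 50 bases above percentile 90. The median percentile of the peaks in the 7 genes was 89.2 for WT 1, 96.5 for WT 2, 83.5 for CKO 1 and 54.1 for CKO 2. The genotypes did not overlap in this measure, with means of 92.8 ± 5.14 and 68.8 ± 20.8 (SD, n = 2 each). The exact permutation p was 0.333 (adjusted p = 1.0), and ranks in lists of different lengths do not show a change of signal. CKO minus WT was -24.0 percentile points, and -9.3 without CKO 2. It was -12.97 in the top 50% of each list, and -15.05 with peaks of 100 bases or more (exact permutation p = 0.667). How often other stretches of the series separate the genotypes in this measure was not tested.

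By the distribution of their peaks over the 4 lists, Myh9 and Pfn1 were the most alike pair of the 7 genes. The differences between their shares of peaks per list summed to 0.228, where 0 would be identical. Pfn1 has 3 peaks in all, so this likeness rests on few peaks. Pfn1 with Gsn came next (0.267), both without a peak in WT 2, and Myh9 with Vim were the least alike (0.754).

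Few peaks lay near the edges of the spans. No further same-strand peak lay within 1 kb outside any of the 7 spans, and 2 lay within 5 kb, both beside Tln1. They were at chr4:43567248-43567447 in WT 1 (percentile 64.95) and chr4:43567784-43567916 in CKO 2 (percentile 47.4). The peak nearest to an edge on the inside belonged to Flna, at chrX:73267102-73267301 in CKO 1 (percentile 54.9).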

How the data were processed

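Per the submitters' processing notes, the authors used fastp 0.20.1, STAR 2.7.8a, MACS2 2.2.7.1 and the build mm39. Per the labels, each deposited list holds MACS2 peaks of 1 IP library over its input. Each peak has a deposited score, the authors' own, and which MACS2 quantity it is remains unstated. Calls are numbered in order of position, and 45.3% to 62.8% of the numbers are listed, so part of the calls is not analysed here. The files hold no read totals. Whether replicates came from separate mice is not stated, so p-values measure only the spread between lists, which may be technical.

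Positions were read as BED and are given counting from 1. Spans come from the rule as whole kb. Same-strand peaks sharing 1 base were merged into regions with Python 3.11.15 and pandas 2.3.3, checked on made-up lists with known answers. Genotypes were compared over the lists by the exact permutation test, two-sided, with Benjamini-Hochberg adjustment over 10 tests. All 7 genes were named, with the regions in all 4 lists, in both WT lists alone or in both CKO lists alone; the 5′ edge comparison, the chained stretches and other peaks were picked after their values were seen, the peaks as the highest, lowest or shared ones of a gene. Members and lists of genes were chosen with earlier results of these data known. No mm39 sequence or annotation was used, so peak sequences, exons and UTRs, other podosome genes and cell type markers were not analysed here. The alternatives were a higher score limit, equal list sizes, a minimum width of 100 bases, peaks wholly inside the spans, merging across 100 bases, sharing of 50% of the shorter peak, each list left out, and replicate numbers as a block.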

Additional observations from a re-analysis of the deposited data

Results flagged for a closer look

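On the strand opposite to Tln1, CKO 2 listed a peak of 58 bases at chr4:43562332-43562389 (plus strand), at percentile 77.6 of its list. It lies outside the comparisons, which use the strand of the gene, and neither WT list nor CKO 1 had a peak on the opposite strand of any of the 7 spans. The gene it belongs to was not identified here.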

How the results depend on the processing

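Peaks wholly inside the spans gave the same values as peaks touching them. Differences are CKO minus WT. Leaving out 1 list gave -3.5 to 18.5 peaks and -567 to 2042 bases in the 7 genes, and -1.0 to 6.0 peaks in Tln1, -3.0 to 2.0 in Flna, -4.5 to 8.5 in Myh9, -0.5 to 0.5 in Vim and 0 to 1.0 in Pfn1, and the Gsn difference stayed at 2.0 to 4.0. The median percentile difference stayed below 0, at -38.7 to -9.3. In the top 50% of each list the difference over the 7 genes was 0.5 peaks, against 7.5 as reported, and 312 bases, against 737.5; by gene it was -1.0 in Tln1, 0 in Myh9 and 0.5 in Vim; with peaks of 100 bases or more it was 0 in Tln1 and 0.5 in Flna, and with equal list sizes 0.5 in Flna. The count of regions held by both WT lists alone, 0 as reported, became 1 to 14 when a list was left out, and that of both CKO lists alone, 2, became 2 to 20, since 1 list then stands for its genotype or fewer lists can hold a region. Neither the top 50% nor a width of at least 100 bases left any of the latter (0 each), and both settings left 1 of the 2 regions held by every list; with a list left out, 2 to 3 were held by every remaining list. The replicate block compares lists of the same number. Its region counts were 15, 22.5 and 8.0 (WT alone, CKO alone and shared, as means over the numbers). Its overlap difference was -0.0591. The peak difference of 7.5 cannot change under the block, since the mean of such differences equals the difference of the means. The labels do not say that the numbers pair the lists. The overlap difference kept its sign in every alternative run, at -0.146 (without WT 2) to -0.0513 (without CKO 1). Read depth is unknown, and how far it limits WT 2 was not measured.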
